A study of Homo sapiens with 36 samples.

Results

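The ERBB receptors and their ligands were examined in the RNA-seq data of human neural stem cells (hNSC). The 10 genes were taken by name from the count table of 28516 genes: the receptors EGFR, ERBB2, ERBB3 and ERBB4 and the ligands NRG1, NRG2, HBEGF, TGFA, EGF and AREG. Of these, 9 had at least 10 counts summed over all 36 libraries and were tested among 19689 genes, whereas AREG had 0 counts in every library. The hNSC were a commercial line (Gibco) kept in serum-free StemPro NSC medium on Geltrex, and RNA was taken 48 h after infection with lentiviruses. Each of 6 conditions had 6 libraries. MEIS1 or MEIS2, which encode TALE homeodomain transcription factors, was switched up in MEIS1-OE and MEIS2-OE by CRISPR-activation (a Cas9 that does not cut, bound to activator domains). The study lists a single activation guide for each gene, so effects of the guide and of the gene cannot be told apart there. In MEIS1-KO and MEIS2-KO, cutting Cas9 was directed to the same genes with a mixture of guides, and the cells were not cloned. The vectors of each system were given with non-targeting guides in ctrl-OE and ctrl-KO, so that every library came from infected cells and no library from untreated ones. The labels do not say whether the 6 libraries of a condition came from separate cultures, and p-values measure the spread between these libraries, which may be technical.

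The ERBB family are receptor tyrosine kinases that pair with each other when a ligand binds. EGFR binds EGF, TGFA, AREG and HBEGF, ERBB3 and ERBB4 bind neuregulins such as NRG1 and NRG2, and ERBB4 also binds HBEGF. ERBB2 has no known ligand and serves as the preferred partner of the others, while ERBB3 has hardly any kinase activity and signals through its partner. Most ligands are made as membrane proteins and released by ADAM proteases, and bound receptors act through the RAS-ERK and PI3K-AKT pathways. In neural stem cells EGF is a classical mitogen, and the medium used here is supplied with added EGF and basic FGF, so that the ligand RNA does not show all of the ligand the cells met.

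The 250 bases before the start of transcription are shown for the 3 genes with a RefSeq promoter entry whose RNA passed the test in a comparison of a MEIS condition with its control: HBEGF, ERBB4 and EGFR (the entry at the 5′ end of the gene). The coordinates are of GRCh38.p14, the sequences are read along the gene's own strand, and capitals mark the letters GGGCGG on either strand.
HBEGF, chr5:140346604-140346853, minus strand: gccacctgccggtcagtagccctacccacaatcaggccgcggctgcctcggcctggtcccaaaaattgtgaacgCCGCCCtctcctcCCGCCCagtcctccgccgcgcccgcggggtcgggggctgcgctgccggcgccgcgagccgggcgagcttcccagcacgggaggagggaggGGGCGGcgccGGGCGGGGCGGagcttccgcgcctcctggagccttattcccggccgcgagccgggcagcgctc
ERBB4, chr2:212538803-212539052, minus strand: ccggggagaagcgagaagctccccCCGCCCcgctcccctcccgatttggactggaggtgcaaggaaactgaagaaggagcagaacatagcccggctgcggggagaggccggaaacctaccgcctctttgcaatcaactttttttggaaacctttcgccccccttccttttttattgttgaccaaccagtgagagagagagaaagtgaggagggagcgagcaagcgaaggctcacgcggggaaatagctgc
EGFR, chr7:55018767-55019016, plus strand: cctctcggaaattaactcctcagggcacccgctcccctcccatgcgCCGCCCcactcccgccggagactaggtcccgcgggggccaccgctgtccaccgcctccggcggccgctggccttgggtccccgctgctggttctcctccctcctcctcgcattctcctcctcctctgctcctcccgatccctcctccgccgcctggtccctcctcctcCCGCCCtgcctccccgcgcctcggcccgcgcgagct
The HBEGF window held 76.4% G and C and 5 matches to GGGCGG, a sequence bound by SP1 and related factors. The EGFR window held 73.6% G and C and 2 matches, and the ERBB4 window 57.2% and 1 match. A match to GGGCGG was found in 42.6% of the 35116 RefSeq windows of this length. The letters TGACAG, the core bound by MEIS proteins, occurred in none of these 3 windows and in 13.0% of all windows, and the letters TGANTCA, which AP-1 proteins bind, in none of the 3 and in 6.57% of all. Of 11 windows for 8 of the 10 genes, TGACAG occurred on either strand in 1 (NRG2), TGANTCA in 3 and GGGCGG in 7. ERBB3 and NRG1 had no promoter entry, so the bases before them were not searched, and sites farther from the start were not searched for any gene.

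On GRCh37, EGFR lies on chromosome 7 from 55086710 to 55279321 (plus strand), ERBB2 on chromosome 17 from 37844167 to 37886679 (plus), ERBB3 on chromosome 12 from 56470583 to 56497289 (plus) and ERBB4 on chromosome 2 from 212240442 to 213403565 (minus). Among the ligands, HBEGF lies on chromosome 5 from 139712428 to 139726188 (minus), NRG2 on the same chromosome from 139226364 to 139422884 (minus), EGF on chromosome 4 from 110834039 to 110934922 (plus), AREG on the same chromosome from 75310853 to 75320722 (plus), TGFA on chromosome 2 from 70674416 to 70781325 (minus) and NRG1 on chromosome 8 from 31496738 to 32713184 (plus). The reads of overlapping genes cannot be told apart without a stated strand setting. ERBB2 overlaps the oppositely oriented PGAP3, at a mean of 19.6 CPM, and MIEN1, at a mean of 29.0 CPM, and ERBB3 overlaps a gene of the same strand that is not listed in the count table.

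The libraries held between 15429985 and 22940493 counts. MEIS1 RNA was 17.4-fold higher in MEIS1-OE than in ctrl-OE (287 to 323 against 15.7 to 18.8 CPM) and fell in MEIS1-KO to 0.348 of ctrl-KO (6.43 to 11.2 against 23.7 to 28.0 CPM). MEIS2 RNA was 36.5-fold higher in MEIS2-OE (793 to 852 against 20.5 to 24.1 CPM) and fell in MEIS2-KO to 0.468 of ctrl-KO (10.5 to 13.4 against 23.5 to 27.4 CPM). CPM are counts per 1000000 counts of the TMM-scaled library size, and differences are log2 fold changes ± SE of edgeR's quasi-likelihood test in one fit of all 6 conditions, with Benjamini-Hochberg adjustment of p over the tested genes. A gene is said to have risen or fallen where this adjusted p was under 0.05. Of 12 markers of neural stem cells, 11 had at least 1 CPM in each condition, among them NES, SOX2 and VIM. Some markers shared with other cells were high as well, with means over all libraries of 488 CPM for MAP2 and 190 CPM for TUBB3 of the neuron list, 193 CPM for GJA1 of the astrocyte list and 387 CPM for LIN28A and 117 CPM for DPPA4 of the pluripotent list. In the same lists RBFOX3 of mature neurons and NANOG of pluripotent cells had means of at most 0.0175 and 0.0487 CPM in any condition.

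ERBB2 and HBEGF carried most of the receptor and ligand RNA in all 6 conditions. Levels of different genes were compared per kilobase of annotated exon, as the mean over libraries. This length joins the exons of all annotated transcripts and can exceed that of the RNA in these cells, so the shares depend on it. It was 10.321 kb for ERBB2, 15.941 kb for EGFR, 2.99 kb for HBEGF, 7.628 kb for EGF and 21.372 kb for NRG1. ERBB2 made up 89.2% ± 1.31 (SD, n = 6) of the summed receptor level per kilobase in ctrl-OE and 75.6% ± 2.21 in ctrl-KO. EGFR accounted for 6.20% ± 0.572 and 12.1% ± 0.709 in these controls, ERBB4 for 2.75% ± 0.680 and 11.7% ± 1.63, and ERBB3 for 1.86% ± 0.177 and 0.575% ± 0.0297. The second place among the receptors was thus held by EGFR in ctrl-OE, while EGFR and ERBB4 overlapped in ctrl-KO, with shares of 11.3% to 13.2% and 9.89% to 13.9%. Among the 6 ligands, HBEGF made up 91.9% ± 1.23 of the summed level per kilobase in ctrl-OE and 73.8% ± 1.24 in ctrl-KO, and EGF made up 7.25% ± 1.09 and 25.2% ± 1.11. NRG1, NRG2 and TGFA stayed under 1% each in the mean of every condition. The neuregulin NRG3, which is not among the 6, averaged 0.236 CPM per kilobase in ctrl-KO. There NRG1 averaged 0.0415 CPM per kilobase and the 6 ligands summed to 5.44. Before division by length, 5.192 kb for NRG3, the ctrl-KO means were 1.23 CPM for NRG3 and 0.887 CPM for NRG1.

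**Figure D1:**
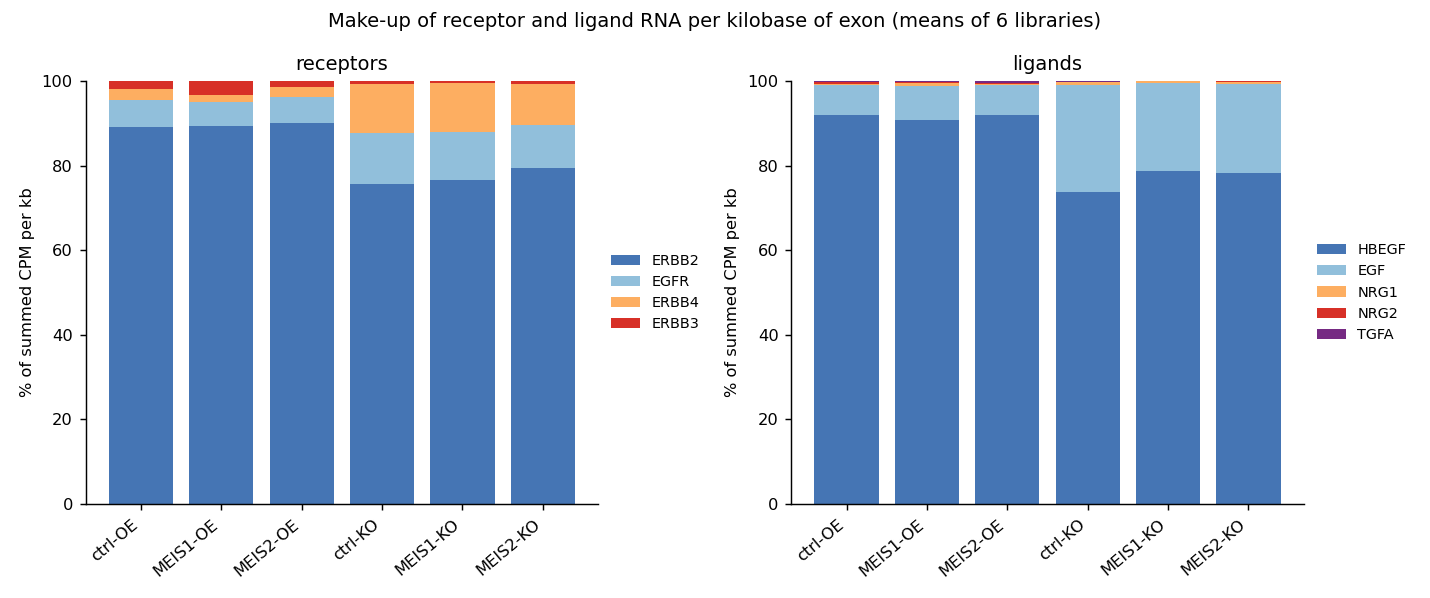
Stacked bars show the mean percentage of the summed CPM per kilobase of exon that each receptor (left) or ligand (right) contributed in the 6 conditions, 6 libraries each. ERBB2 holds between 75.6% and 90.0% of the receptor level and HBEGF between 73.8% and 92.0% of the ligand level, and AREG, at 0, is not drawn.

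In MEIS1-OE, both receptors that bind neuregulins and the neuregulin NRG1 itself changed. Of 9 members tested, 3 passed the test in MEIS1-OE against ctrl-OE, next to 9.10% of all genes tested: ERBB3 and NRG1 rose, as 5.52% of all genes did, and ERBB4 fell, as 3.58% did. The median log2 fold change was 0.0475 over the 9 members and -0.001 over all tested genes. All of these 3 differences also exceeded 0.58 on the log2 scale, which 2.84% of all genes tested did.

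ERBB3 had the lowest, median and highest levels of 4.15, 4.97 and 5.39 CPM in ctrl-OE and of 7.70, 8.89 and 10.2 CPM in MEIS1-OE. Every MEIS1-OE library was above every ctrl-OE library, and the log2 fold change was 0.86 ± 0.09 (adjusted p = 1.3e-09). In MEIS2-OE the levels were 3.41, 3.96 and 4.53 CPM, with 5 of 6 libraries below all of ctrl-OE, and the log2 fold change of -0.32 ± 0.09 missed the threshold (adjusted p = 0.0986, and 0.0362 to 0.412 over the alternative settings). It passed without the replicate 3 libraries of all conditions (-0.41, adjusted p = 0.0362). The direct comparison of the activations gave 1.18 ± 0.09 (adjusted p = 5.7e-13), higher in MEIS1-OE in all 6 libraries. ERBB3 was near its lower end in the KO conditions, where the medians were 1.38, 1.31 and 1.32 CPM in ctrl-KO, MEIS1-KO and MEIS2-KO and the ranges overlapped.

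Markers of neural crest and Schwann cells, in which ERBB3 is a prominent receptor, were followed beside it. Summed over 6 such markers, the level was 5.05 to 7.41 CPM in ctrl-OE, 5.33 to 8.28 CPM in MEIS1-OE and 4.63 to 6.02 CPM in MEIS2-OE, and 2.14 to 3.98 CPM in the KO conditions. FOXD3 was under 0.1 CPM in every condition, SOX10 had a mean of 0.255 CPM in ctrl-OE and 0.311 CPM in MEIS1-OE and was at 0 counts in all KO libraries. One of the markers, the neurotrophin receptor NGFR, rose in MEIS1-OE by 0.48 ± 0.16 (adjusted p = 0.0433, and 0.023 to 0.264 over the alternatives, of which 8 of 13 passed; lost without the libraries of replicate 2, 4, 5 or 6) and was higher in MEIS1-OE than in MEIS2-OE by 1.11 ± 0.17 (adjusted p = 5.5e-06). The part of such cells in the ERBB3 result was not tested, and in bulk RNA fewer cells of a type and less RNA per cell cannot be told apart.

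ERBB4 moved the other way in MEIS1-OE. Its lowest, median and highest levels were 5.82, 8.02 and 10.7 CPM in ctrl-OE and 3.97, 4.87 and 7.15 CPM in MEIS1-OE. MEIS1-OE lay below all ctrl-OE libraries in 5 of 6 libraries, the exception being replicate 3 at 7.15 CPM, and the log2 fold change was -0.67 ± 0.15 (adjusted p = 0.00192). MEIS2-OE lay between them at 5.35, 5.79 and 9.79 CPM, with a log2 fold change against ctrl-OE of -0.32 ± 0.15 (adjusted p = 0.590). The difference between the activations was not called for ERBB4 (-0.36 ± 0.16, adjusted p = 0.192), although it passed without the replicate 3 libraries (-0.51, adjusted p = 0.0345, against a range of 0.0345 to 0.688 over all alternatives). Of 12 neural stem cell markers 3 fell and 0 rose in MEIS1-OE (25.0%, next to 9.1% of all genes), with a list median of -0.004. The 3 were HES5, with low means of 0.548 CPM in ctrl-OE and 0.0635 CPM in MEIS1-OE, SOX1 and PROM1. SOX1 passed in 8 of 13 alternatives (adjusted p 0.0022 to 0.346) and PROM1 in 7 of 13 (0.00179 to 0.192). The part of these markers in the ERBB4 result was not tested.

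NRG1, a ligand of ERBB3 and ERBB4, had 14 to 17 counts per ctrl-OE library and 22 to 48 per MEIS1-OE library. Its lowest, median and highest levels were 0.655, 0.702 and 0.750 CPM in ctrl-OE and 1.09, 1.38 and 2.18 CPM in MEIS1-OE. The groups did not overlap, and the log2 fold change was 1.09 ± 0.16 (adjusted p = 2.7e-06). MEIS2-OE, at 0.633, 0.714 and 0.860 CPM, overlapped ctrl-OE, and NRG1 was higher in MEIS1-OE than in MEIS2-OE by 1.03 ± 0.16 (adjusted p = 9.2e-06) in all 6 libraries. NRG4, a further neuregulin and no member of the 10, summed to 29 counts in MEIS1-OE against 6 in ctrl-OE, a ratio of 5.20 after scaling (95% interval 2.12 to 15.3, counting error only; adjusted p of the fit = 0.00726). Most of these libraries were near the level that 3 counts give, 0.121 to 0.201 CPM, and NRG4 overlaps the oppositely oriented FBXO22 with a mean of 90.5 CPM. Its call against ctrl-OE was lost without the replicate 4 libraries (adjusted p = 0.0649, and 0.00078 to 0.0649 over the alternatives). NRG3, also outside the 10, leaned the other way and was not called (-0.76 ± 0.32, adjusted p = 0.147). Its mean was 0.597 CPM in ctrl-OE and 0.352 CPM in MEIS1-OE, where 4 of 6 libraries were below all of ctrl-OE.

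The remaining members did not pass the test in MEIS1-OE. EGFR had medians of 23.1 CPM in ctrl-OE and 20.7 CPM in MEIS1-OE, ERBB2 of 201 and 226 CPM, HBEGF of 36.6 and 33.0 CPM and EGF of 7.00 and 7.60 CPM, and the ranges overlapped for each of them. NRG2 and TGFA had between 0 and 9 counts per library in these conditions. In MEIS2-OE no member passed the test of edgeR or of DESeq2, where 1.35% of all genes did in edgeR, and 2 members (ERBB3 and ERBB4) had an unadjusted p under 0.05.

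**Figure D2:**
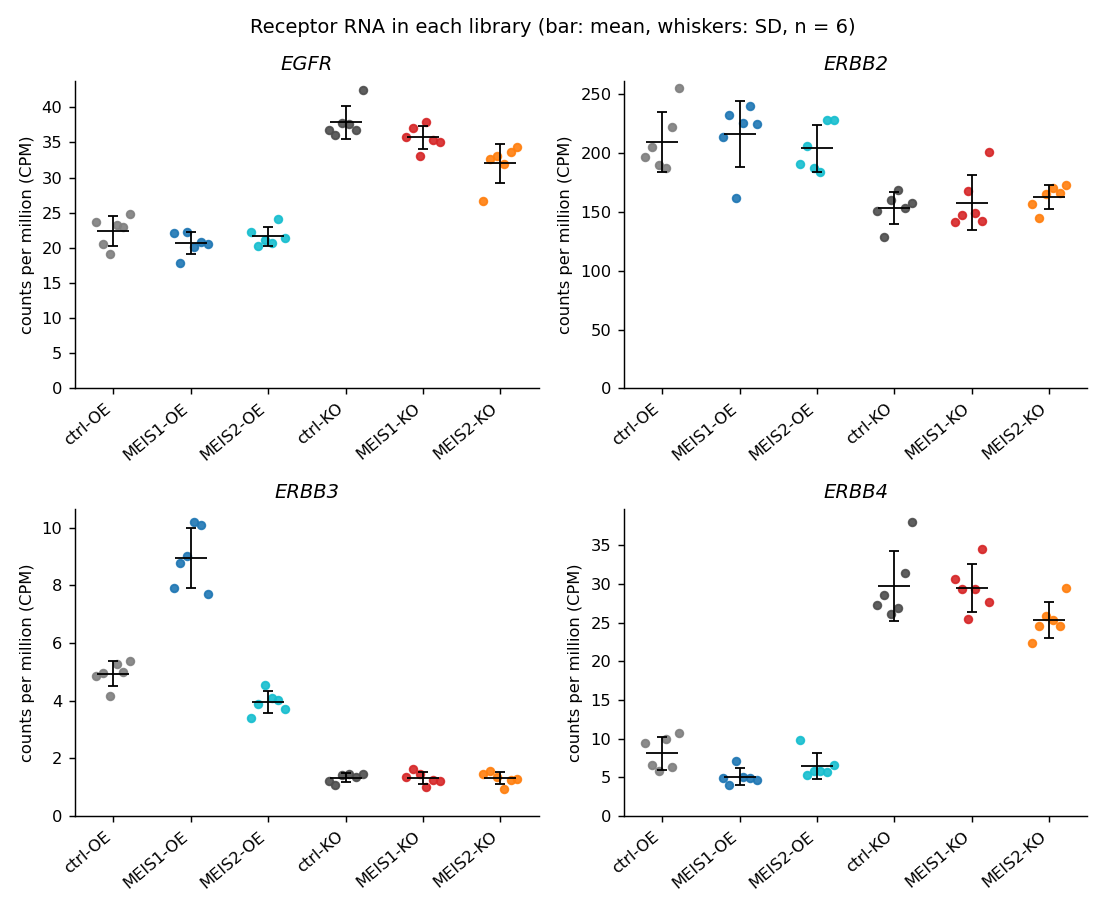
Points are the CPM (linear axis from 0) of the 4 receptors in each of the 36 libraries, bars the condition means and whiskers the SD of 6 libraries. ERBB3 in MEIS1-OE (7.70 to 10.2 CPM) sits above every other library, and EGFR and ERBB4 are higher in all KO than in all OE libraries.

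The direct test of both activations called 2 of 9 members, next to 7.75% of all genes: ERBB3 and NRG1, whose values are given above. In this comparison ctrl-OE cancels.

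HBEGF, the ligand with the highest level, rose in both knockouts. MEIS1-KO and MEIS2-KO were both set against ctrl-KO, so that their differences share the control libraries. The guides of ctrl-KO were non-targeting, whereas those of the knockouts directed Cas9 to cut a gene. For any difference of a knockout from ctrl-KO, a response to cutting and the loss of the MEIS gene cannot be told apart. In MEIS1-KO against ctrl-KO 1 of 9 members passed the test, next to 1.46% of all genes, and in MEIS2-KO 2 of 9, next to 10.0%. The 1 member of MEIS1-KO rose, as 1.03% of all genes did and 0.432% fell, and in MEIS2-KO 1 rose and 1 fell, next to 4.04% and 5.98%. HBEGF had lowest, median and highest levels of 10.9, 11.9 and 13.6 CPM in ctrl-KO, 14.3, 18.3 and 23.4 CPM in MEIS1-KO and 16.0, 17.8 and 20.3 CPM in MEIS2-KO. Every knockout library was above every ctrl-KO library, with log2 fold changes of 0.61 ± 0.11 (adjusted p = 0.00104) for MEIS1-KO and 0.58 ± 0.11 (adjusted p = 5.2e-04) for MEIS2-KO. In neither knockout did the level reach that of the OE conditions, where HBEGF ranged from 29.1 to 46.2 CPM. Markers moved in the knockouts as well. Of 12 neural stem cell markers, 1 rose and 1 fell in MEIS1-KO (16.7%, next to 1.46% of all genes) and 1 rose and 5 fell in MEIS2-KO (6 of 12, next to 10.0% of all genes). The list's median log2 fold change was -0.128 in MEIS1-KO and -0.182 in MEIS2-KO, against 0.003 and -0.011 over all tested genes. Its summed level was 4620 to 5165 CPM in ctrl-KO, 4947 to 6295 CPM in MEIS1-KO and 5181 to 6291 CPM in MEIS2-KO. Most of this sum came from VIM, with a mean of 2444 CPM in ctrl-KO, and NES, with 1518 CPM. VIM was the marker that rose in both knockouts, and its call in MEIS1-KO was lost in some alternatives (adjusted p = 0.0400, and 0.00082 to 0.255). PAX6, a transcription factor of neural progenitors, fell in MEIS1-KO (-0.42 ± 0.10, adjusted p = 0.0178, and 0.00312 to 0.113 over the alternatives; lost without the libraries of replicate 2, 3, 4 or 6) and in MEIS2-KO (-0.52 ± 0.10, adjusted p = 6.9e-04). Of 7 mesenchymal markers, 1 rose in MEIS1-KO and 2 rose in MEIS2-KO, and their summed level was 713 to 927, 812 to 1145 and 790 to 1028 CPM in ctrl-KO, MEIS1-KO and MEIS2-KO. Among them COL1A1, a collagen gene, rose in MEIS2-KO (1.06 ± 0.22, adjusted p = 0.00114) and in MEIS1-KO (0.82 ± 0.22, adjusted p = 0.0408), where the call was lost with any 1 replicate number left out (adjusted p up to 0.199). Their part in the HBEGF result was not tested.

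EGFR, a receptor of HBEGF, fell in MEIS2-KO. Its lowest, median and highest levels were 36, 37.2 and 42.5 CPM in ctrl-KO, 33.1, 35.6 and 37.9 CPM in MEIS1-KO and 26.6, 32.8 and 34.4 CPM in MEIS2-KO. All MEIS2-KO libraries were below all ctrl-KO libraries, and the log2 fold change was -0.24 ± 0.06 (adjusted p = 0.0110). This call was lost without the replicate 1 libraries of all conditions (-0.20, adjusted p = 0.0634, and 0.00634 to 0.0634 over the alternatives). In MEIS1-KO, 4 of 6 libraries were below all ctrl-KO libraries and the difference of -0.09 ± 0.06 was not called (adjusted p = 0.681). The median of EGF, the ligand that names the receptor, was 10.5 CPM in ctrl-KO, 12.5 CPM in MEIS1-KO and 12.2 CPM in MEIS2-KO. All MEIS2-KO libraries were above ctrl-KO (11.2 to 13.7 against 9.65 to 11.1 CPM), yet the differences of 0.23 ± 0.09 missed the threshold in both MEIS1-KO (adjusted p = 0.228) and MEIS2-KO (adjusted p = 0.0893). With the compared groups alone in the fit, that of MEIS2-KO passed it (adjusted p = 0.0176, and 0.0176 to 0.273 over the alternatives).

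The other receptors overlapped their control in both knockouts. ERBB4 had medians of 28.0, 29.3 and 24.9 CPM in ctrl-KO, MEIS1-KO and MEIS2-KO, with 5 of 6 MEIS2-KO libraries below all of ctrl-KO and a log2 fold change of -0.23 ± 0.13 (adjusted p = 0.269). ERBB2 had medians of 156, 148 and 166 CPM. NRG1 ranged from 0.648 to 1.05 CPM in ctrl-KO, from 0.497 to 0.940 CPM in MEIS1-KO (log2 fold change -0.32 ± 0.18, adjusted p = 0.614) and from 0.764 to 1.13 CPM in MEIS2-KO. NRG2 and TGFA had at most 2 counts in any KO library. Between MEIS1-KO and MEIS2-KO no member passed the test in edgeR or in DESeq2, next to 0.0152% of all genes in edgeR, and 2 members (EGFR and NRG1) had an unadjusted p under 0.05.

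**Figure D3:**
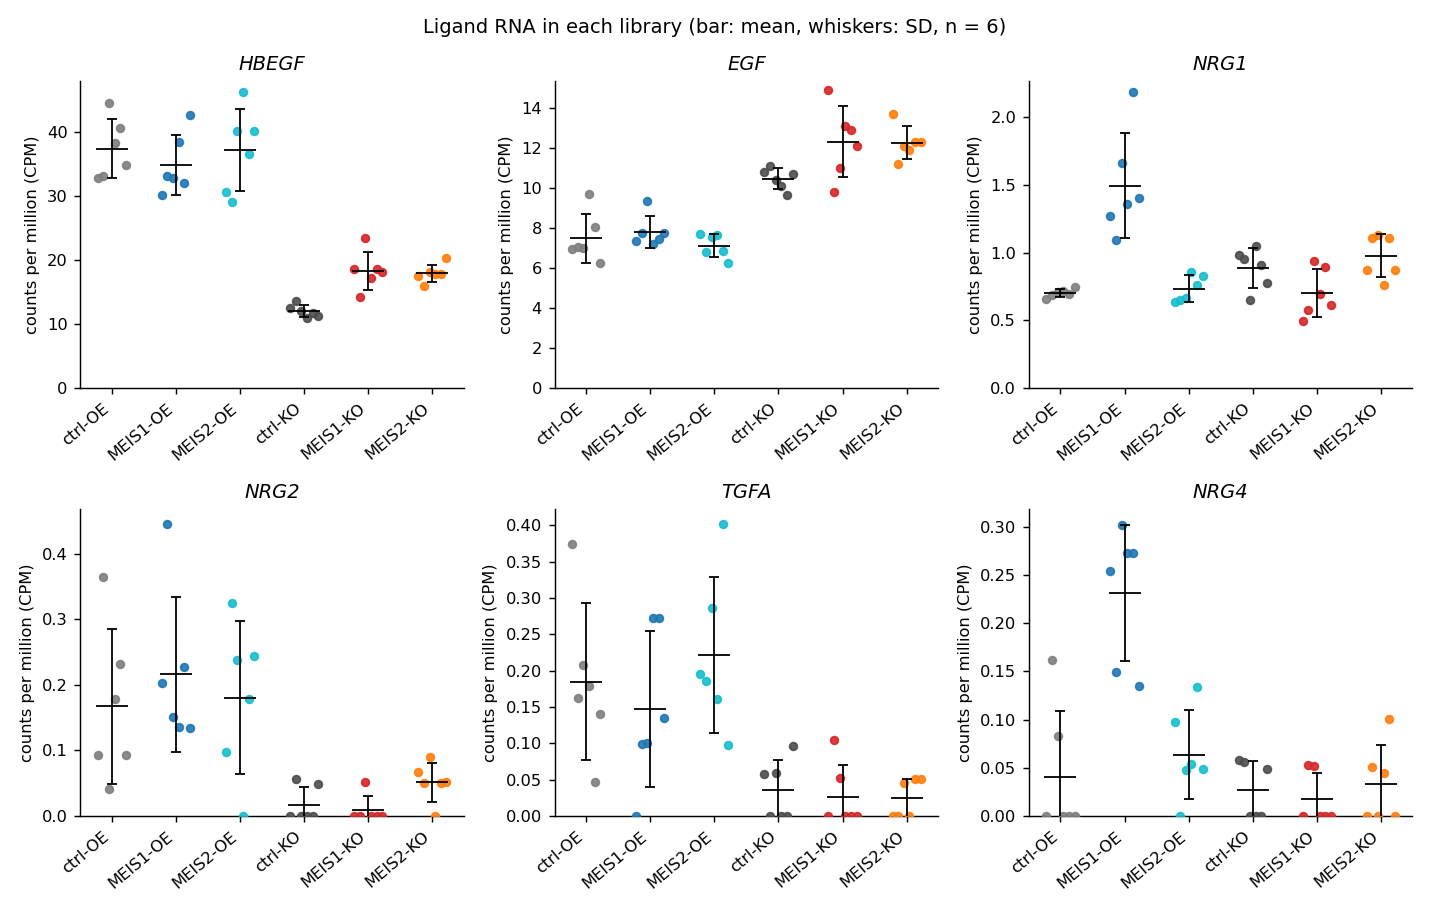
Points are the CPM (linear axes from 0, each with its own scale) of 6 ligands in each of the 36 libraries, bars the condition means and whiskers the SD of 6 libraries. HBEGF separates all OE (29.1 to 46.2 CPM) from all KO libraries (10.9 to 23.4 CPM), NRG1 is highest in MEIS1-OE, and NRG2, TGFA and NRG4 lie near 0 with few counts.

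The study's contrast for each gene, the effect of activation minus that of knockout, tests whether both effects differ. For MEIS1 it called 3 of 9 members, next to 3.48% of all genes: NRG1 (1.41 ± 0.24, adjusted p = 1.5e-04), ERBB3 (0.86 ± 0.17, adjusted p = 7.5e-04) and HBEGF (-0.72 ± 0.15, adjusted p = 0.00172). The separate effects of activation and knockout were 1.09 and -0.32 for NRG1, 0.86 and 0.00 for ERBB3, and -0.10 and 0.61 for HBEGF. The value of ERBB4, -0.66 ± 0.20, lay at the threshold (adjusted p = 0.0523, and 0.00821 to 0.265 over the alternatives, of which 5 of 13 passed). For MEIS2 it called 1 of 9 members, next to 2.57%: HBEGF (-0.59 ± 0.15, adjusted p = 0.0176). That call was lost without the replicate 1 libraries (-0.60, adjusted p = 0.0545) and without the replicate 5 libraries (-0.56, adjusted p = 0.134).

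**Figure D4:**
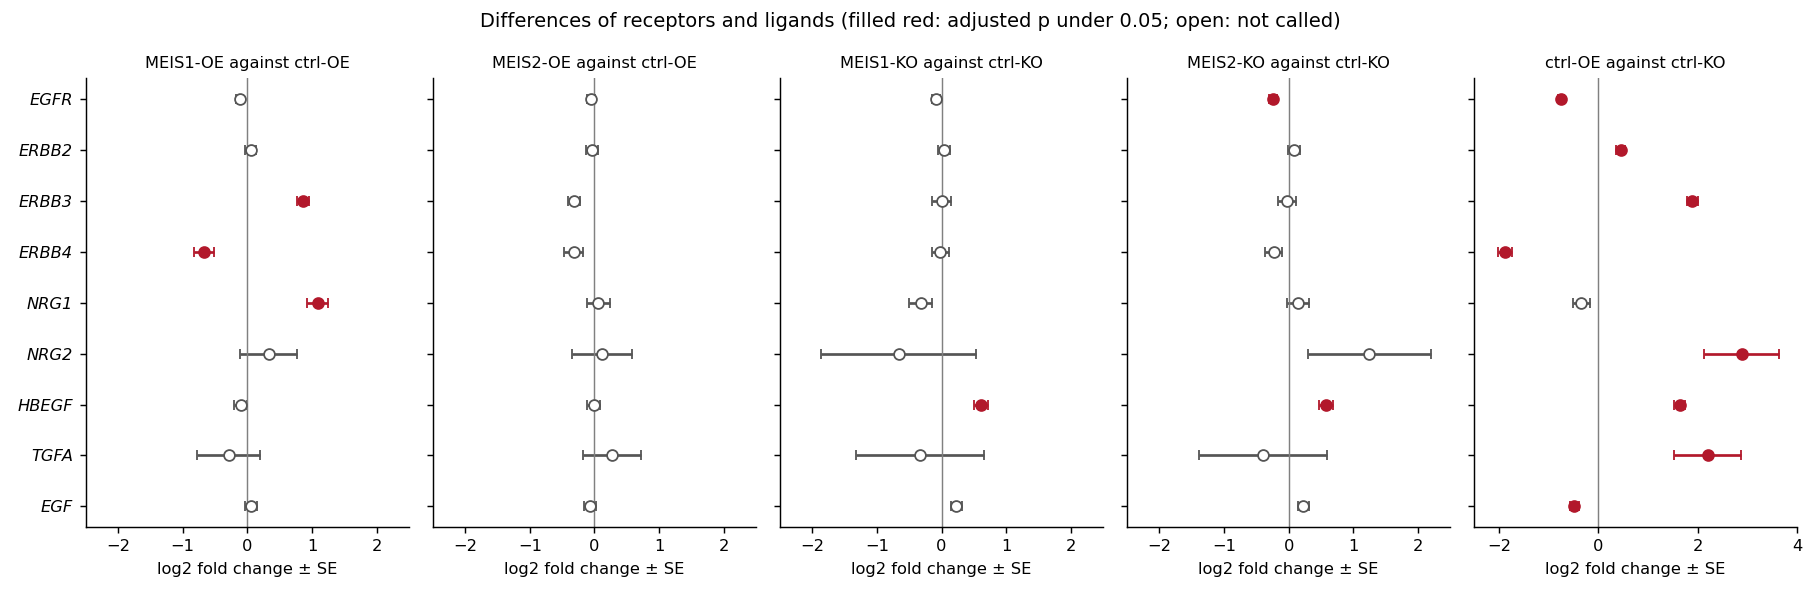
Log2 fold changes ± SE of the 9 tested members in the 4 MEIS conditions against their controls and, on a wider axis, in ctrl-OE against ctrl-KO, with filled red points for an adjusted p under 0.05. ERBB3 and NRG1 lie to the right and ERBB4 to the left in MEIS1-OE, HBEGF lies to the right in both knockouts, and between the controls ERBB4 lies at -1.88 and ERBB3 at 1.89. The fitted values of NRG2 and TGFA rest on few counts and move with the prior count.

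More members differed between the controls of both systems than between any MEIS condition and its control. In ctrl-OE against ctrl-KO 8 of 9 members passed the test, next to 51.4% of all genes, 5 of them higher and 3 lower in ctrl-OE, next to 27.5% and 23.9%. The controls differ in vectors and in the number of viruses, and these cannot be told apart, nor from any difference between the cultures. ERBB3 was 3.70-fold higher in ctrl-OE (1.89 ± 0.11, adjusted p = 4.7e-17) and ERBB4 was at 0.273 of its ctrl-KO level (-1.88 ± 0.14, adjusted p = 1.0e-14). Per kilobase, the mean share of ERBB4 was above that of ERBB3 in both controls. HBEGF was 3.12-fold higher (1.64 ± 0.11, adjusted p = 4.5e-16) and ERBB2 1.36-fold higher in ctrl-OE (0.45 ± 0.09, adjusted p = 3.1e-05). EGFR was at 0.590 (-0.76 ± 0.06, adjusted p = 6.0e-13) and EGF at 0.719 of the ctrl-KO level (-0.48 ± 0.09, adjusted p = 2.6e-05). For ERBB2, EGFR, ERBB3, ERBB4 and HBEGF the ranges did not overlap.

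NRG2 and TGFA rose with few counts. NRG2 had 23 counts in ctrl-OE and 2 in ctrl-KO, summed over 6 libraries each, a ratio of 9.57 (95% interval 2.36 to 83.7, counting error only; adjusted p of the fit = 0.00136). TGFA had 25 and 4 counts, a ratio of 5.20 (1.80 to 20.6; adjusted p = 0.00608). Their ranges overlapped between the controls. NRG1 was the member that did not pass (-0.34 ± 0.18, adjusted p = 0.163), with 0.655 to 0.750 CPM in ctrl-OE and 0.648 to 1.05 CPM in ctrl-KO. Of the 5 other ligands, NRG3 was lower in ctrl-OE (81 against 140 summed counts, -1.04 ± 0.26, adjusted p = 7.3e-04). BTC and EREG had 2 counts each and EPGN 58 counts over all 36 libraries. For AREG, 0 counts allow a level of up to 0.00412 CPM over all libraries, taking 3 counts as the limit.

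The summed levels of marker lists of other cell types differed between the systems as well, and such sums are weighted to the genes with the highest levels. The summed levels were 347 to 546 CPM in the OE and 713 to 1145 CPM in the KO conditions for 7 mesenchymal markers, 381 to 559 and 766 to 994 CPM for 10 neuron markers, 109 to 155 and 249 to 353 CPM for 7 astrocyte markers, and 4.58 to 9.06 and 1.05 to 2.21 CPM for 6 epithelial markers. Neural stem cell markers summed to 3092 to 4403 CPM in the OE and to 4620 to 6295 CPM in the KO conditions. Single markers did not all follow their list: SYP of neurons (1.40 ± 0.10, adjusted p = 7.8e-15) and GFAP of astrocytes (means of 0.210 and 0.0478 CPM, adjusted p = 0.00180) were higher in ctrl-OE, while MAP2 (-1.51 ± 0.07, adjusted p = 3.5e-20), GJA1 (-1.23 ± 0.07, adjusted p = 1.5e-18) and SLC1A3 (-1.51 ± 0.13, adjusted p = 6.6e-13) were lower. KRT18, a keratin of simple epithelia, was 9.06-fold higher in ctrl-OE (5.52 against 0.607 CPM, adjusted p = 8.8e-18), and CDH1, a defining marker of the same list, had means under 0.1 CPM in every condition. Of the 7 mesenchymal markers 1 was higher and 3 were lower in ctrl-OE (57.1%, next to 51.4% of all genes). COL1A1 was the higher one (0.61 ± 0.21, adjusted p = 0.0158, and 0.00058 to 0.0543 over the alternatives). COL3A1, with means of 178 CPM in ctrl-OE and 574 CPM in ctrl-KO, was lower (-1.69 ± 0.09, adjusted p = 1.2e-18). The part of these marker differences in those of the receptors and ligands was not tested.

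Ranked over the 6 conditions, the members fell into distinct orders. EGFR and ERBB4 were highest in ctrl-KO, and their 3 KO conditions, which overlapped their neighbours in the order, were separated from the 3 OE conditions, which overlapped likewise. The means of ERBB2 were higher in the OE than in the KO conditions, and the neighbours MEIS2-OE (184 to 228 CPM) and MEIS2-KO (145 to 173 CPM) were apart, whereas MEIS1-OE, with 1 library at 162 CPM, overlapped all 3 KO conditions. MEIS1-KO, at up to 201 CPM, also overlapped MEIS2-OE and ctrl-OE, which began at 187 CPM. HBEGF had 2 gaps, one between the OE conditions and the MEIS knockouts and one between those and ctrl-KO, and ERBB3 had 2 as well, above and below ctrl-OE and MEIS2-OE. For EGF, the neighbours MEIS2-KO and ctrl-KO and the neighbours ctrl-KO and MEIS1-OE were apart, whereas ctrl-OE, at up to 9.71 CPM, overlapped ctrl-KO, which began at 9.65 CPM. For NRG1, NRG2 and TGFA, every neighbour in the order overlapped the next.

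Within conditions, the residual spread of the 6 members with a mean of at least 1 CPM was compared in 15 pairs (log2 CPM minus the condition mean, permutation within conditions, two-sided). EGFR and ERBB4 deviated together over the 36 libraries (Pearson's r = 0.63, permutation p = 3.4e-04, adjusted p = 0.0051; Spearman's rho = 0.62, permutation p = 4.0e-04, adjusted p = 0.0060), with r = 0.65 in the 18 OE and 0.64 in the 18 KO libraries and 0.59 without the 2 libraries farthest from the median of EGFR. The next pair, ERBB2 and EGF, did not pass the threshold after adjustment (r = -0.51, permutation p = 0.00784, adjusted p = 0.0588; rho = -0.42, permutation p = 0.0221, adjusted p = 0.166), with -0.70 in the OE and -0.24 in the KO libraries. Nor did any of the other 13 pairs. The 2 values of a pair come from the same library and share its scaling.

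The genes whose 6 condition means were most like those of a member were taken for the members with a mean of at least 1 CPM and condition means spanning at least 1 on the log2 scale, which were ERBB3, ERBB4 and HBEGF. Likeness was the root mean square difference of the centred means. Nearest to ERBB3 were GIPR, which encodes the receptor of the incretin GIP (0.0813), the glycosyltransferase gene B3GNT7 (0.120) and the sodium-calcium exchanger gene SLC8A2 (0.133). GIPR, for example, averaged 3.30 CPM in ctrl-OE, 5.22 CPM in MEIS1-OE, 2.68 CPM in MEIS2-OE and between 0.795 and 0.854 CPM in the KO conditions. Nearest to ERBB4 were the basement membrane gene NID2 (0.0783), the cell adhesion gene CADM2 (0.0830) and the adenylate cyclase gene ADCY2 (0.0956), and nearest to HBEGF were PSORS1C2 (0.0883), GDPD5 (0.0893) and FAM83H (0.0898). PSORS1C2 averaged at most 0.347 CPM in any condition. NID2 averaged 93.5 CPM in ctrl-OE and 71.3 CPM in MEIS1-OE and between 309 and 379 CPM in the KO conditions.

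**Figure D5:**
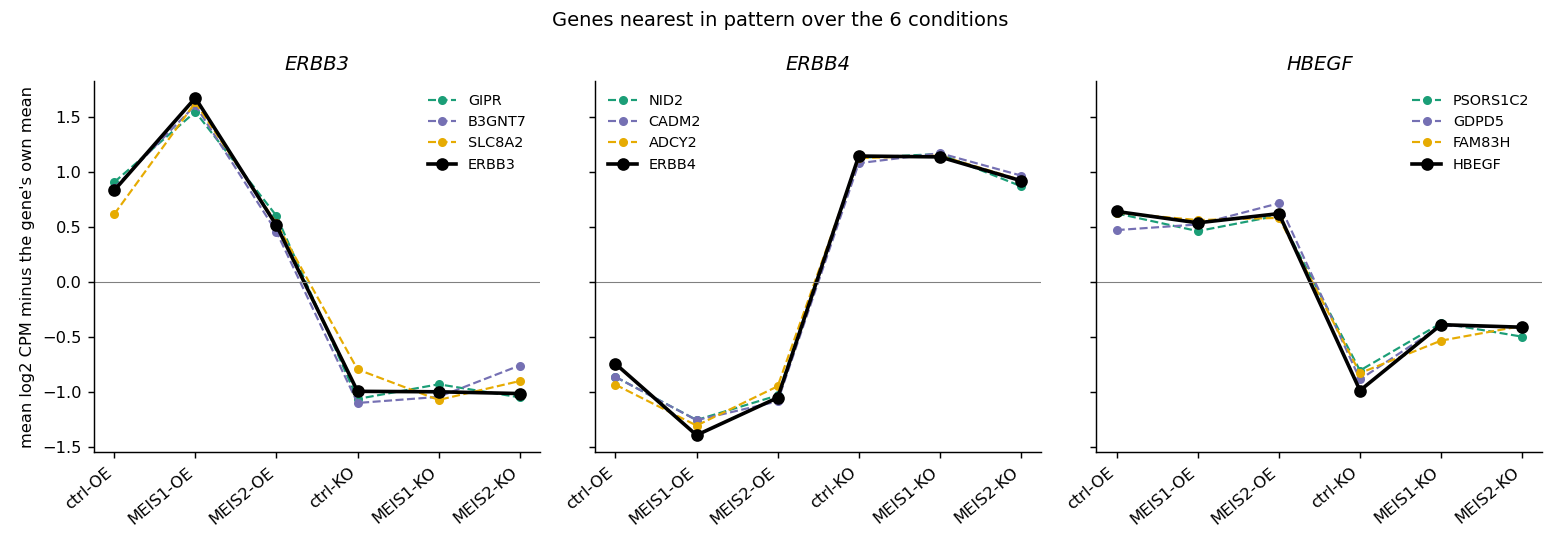
Lines join the mean log2 CPM of each condition, minus the gene's own mean over the 6 conditions, for ERBB3, ERBB4 and HBEGF (black) and the 3 genes nearest to each in root mean square difference. The KO conditions lie low for ERBB3 and HBEGF and high for ERBB4, and MEIS1-OE is the highest point of ERBB3 and the lowest of ERBB4.

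Genes that release ligands, restrain the receptors or carry their signal were followed as fixed lists. Among 11 tested genes of ligand shedding, 1 fell in MEIS1-OE and in MEIS2-OE, none passed in MEIS1-KO and 2 rose in MEIS2-KO. These are 9.09%, 9.09%, 0% and 18.2% of the list, next to 9.10%, 1.35%, 1.46% and 10.0% of all genes tested. The gene that fell in both activations was FRMD8, whose product keeps the iRhom-ADAM17 complex at the cell surface: its mean was 113 CPM ± 15.4 in ctrl-OE, 73.1 CPM ± 11.4 in MEIS1-OE (-0.63 ± 0.10, adjusted p = 2.6e-05) and 80.3 CPM ± 10.3 in MEIS2-OE (-0.50 ± 0.10, adjusted p = 0.00389), and it was 5.75-fold higher in ctrl-OE than in ctrl-KO (2.52 ± 0.11, adjusted p = 1.2e-20). The median log2 fold change of this list was 0.107, 0.039, 0.141 and 0.187 in the 4 conditions in this order, against -0.001, -0.009, 0.003 and -0.011 over all tested genes.

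Of 16 genes of receptor inhibition and turnover, 3 rose and 2 fell in MEIS1-OE, 1 rose and 1 fell in MEIS2-OE, none passed in MEIS1-KO, and 1 rose and 1 fell in MEIS2-KO. These are 31.2%, 12.5%, 0% and 12.5% of the list, next to 9.1%, 1.35%, 1.46% and 10.0% of all genes tested. RNF41 (NRDP1), a ubiquitin ligase that acts on ERBB3 and ERBB4, rose in MEIS1-OE from 101 CPM ± 4.65 to 149 CPM ± 7.91 (0.56 ± 0.04, adjusted p = 4.5e-13) and was higher there than in MEIS2-OE (0.43 ± 0.04, adjusted p = 5.8e-10). LRIG3, of a family of membrane proteins that modulate ERBB receptors, rose in MEIS1-OE (0.31 ± 0.07, adjusted p = 0.00118) and in MEIS2-OE (0.37 ± 0.07, adjusted p = 4.3e-04). LRIG1 of the same family, at 168 CPM in ctrl-OE against 19.5 CPM for LRIG3, fell in both. Its differences were -0.16 ± 0.05 in MEIS1-OE (adjusted p = 0.0453, and 0.0123 to 0.177 over the alternatives) and -0.23 ± 0.05 in MEIS2-OE (adjusted p = 0.00882, and 0.00112 to 0.14). SH3GL2 (endophilin A1), which takes part in endocytosis, fell in MEIS1-OE from 1.16 CPM ± 0.117 to 0.406 CPM ± 0.179 (-1.51 ± 0.25, adjusted p = 3.1e-05). The list's median log2 fold change was 0.045 in MEIS1-OE and between -0.065 and 0.015 in the other 3 conditions.

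Among 18 adaptors and scaffolds, 3 rose in MEIS1-OE and none passed in MEIS2-OE, 1 rose in MEIS1-KO, and 1 rose and 3 fell in MEIS2-KO. The shares of the list were 16.7%, 0%, 5.56% and 22.2%, against 9.10%, 1.35%, 1.46% and 10.0% of all genes. The adaptor GAB2 (0.31 ± 0.05, adjusted p = 5.8e-05) and the mucin MUC1, which associates with ERBB receptors (0.56 ± 0.11, adjusted p = 2.2e-04), rose in MEIS1-OE. SHC1, the adaptor that couples active receptors to RAS, rose in both knockouts, from 366 CPM ± 16.1 in ctrl-KO to 459 CPM ± 50.4 in MEIS1-KO (0.33 ± 0.06, adjusted p = 0.00229) and to 504 CPM ± 40.5 in MEIS2-KO (0.46 ± 0.06, adjusted p = 8.5e-06). The median of the list lay between -0.011 and 0.033 in the 4 conditions.

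Of 13 genes of the RAS-ERK cascade none passed in MEIS1-OE, MEIS2-OE or MEIS1-KO, and 1 rose and 2 fell in MEIS2-KO (23.1%, next to 10.0% of all genes, and 0% next to 9.10% in MEIS1-OE). Of 14 genes of the PI3K-AKT arm, 2 rose and 2 fell in MEIS1-OE, none passed in MEIS2-OE or MEIS1-KO, and 2 fell in MEIS2-KO. These are 28.6% of the list in MEIS1-OE, next to 9.10% of all genes, and 14.3% in MEIS2-KO, next to 10.0%. AKT2, 1 of 3 genes for the kinase AKT, fell in MEIS1-OE from 116 CPM ± 17.5 to 85.0 CPM ± 12.1 (-0.45 ± 0.10, adjusted p = 0.00140), while the catalytic subunit PIK3CD rose (0.47 ± 0.11, adjusted p = 0.00314), a call that was lost without the replicate 4 libraries (0.40, adjusted p = 0.0582).

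Among 18 genes that ERK signalling is known to induce, 6 rose and none fell in MEIS1-OE, 4 rose and none fell in MEIS2-OE, 2 rose and 1 fell in MEIS1-KO, and 5 rose and 2 fell in MEIS2-KO. These are 33.3%, 22.2%, 16.7% and 38.9% of the list, next to 9.10%, 1.35%, 1.46% and 10.0% of all genes tested. SPRY2, a feedback inhibitor of receptor tyrosine kinases, averaged 122 CPM ± 8.95 in ctrl-OE and rose to 168 CPM ± 11.2 in MEIS1-OE (0.46 ± 0.05, adjusted p = 4.2e-10) and to 176 CPM ± 9.48 in MEIS2-OE (0.53 ± 0.05, adjusted p = 4.6e-11). It averaged 204 CPM ± 3.42 in ctrl-KO and fell to 176 CPM in both MEIS1-KO (-0.21 ± 0.04, adjusted p = 0.00586) and MEIS2-KO (-0.22 ± 0.04, adjusted p = 0.00154). The call in MEIS1-KO was lost without the replicate 3 libraries (adjusted p = 0.0522) and without the replicate 5 libraries (adjusted p = 0.0550). FOSL1, a subunit of AP-1, rose in MEIS1-KO (0.55 ± 0.11, adjusted p = 0.00229) and in MEIS2-KO (0.66 ± 0.10, adjusted p = 6.5e-05), and SPRY4, a relative of SPRY2, rose in MEIS2-KO from 161 CPM ± 8.64 to 223 CPM ± 13.1 (0.47 ± 0.09, adjusted p = 5.7e-04). The median log2 fold change of the list was 0.143, 0.045, 0.064 and 0.106 in MEIS1-OE, MEIS2-OE, MEIS1-KO and MEIS2-KO.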

How the data were processed

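RNA-seq was made from hNSC in 6 conditions with 6 libraries each (poly-A RNA, stranded, 100 bases from both ends). The reads were aligned to hg19 (GRCh37) with STAR, given as version 2.4.2a in the methods and 2.7.0a in the submitters' processing notes, which also name Trimmomatic 0.39, and HTSeq 0.6.0 counted them on genes. The annotation and strand setting are not given in the sources used here. As deposited by the authors, the values are raw counts per gene symbol without normalization.

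Genes with at least 10 counts over all libraries were tested with TMM scaling and two-sided quasi-likelihood F tests in edgeR 4.0.16 (limma 3.58.1, R 4.3.3), one fit of 6 groups, prior count 0.125 for fold changes, with SE = |log2 fold change| / sqrt(F) and Benjamini-Hochberg adjustment over 19689 genes. On simulated data with 200 changed genes among 19689 (MEIS1-OE against ctrl-OE), edgeR recovered 191 with 7 false calls. The changed genes were drawn only from genes with higher mean counts than NRG1, NRG2, TGFA and NRG4. Changes as small as that of EGFR in MEIS2-KO were not simulated, so the recovery does not cover such genes and changes. Exon lengths came from GENCODE 44 lifted to GRCh37, promoters from RefSeq tables, and ratios of few counts from exact conditional intervals. Tables were made in Python 3.11.15 (pandas 2.3.3, numpy 2.4.6, scipy 1.17.1) and plots with matplotlib 3.10.9. Permutations of correlations numbered 100000.

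The members, gene lists and tests were chosen with earlier results of these data known. Named were the 10 members, 5 other ligands, MEIS1 and MEIS2, up to 2 called genes per direction, list and comparison with the smallest p, defining markers, and the 3 nearest patterns, and not every gene the rule allows is printed. Alternatives were RLE factors, filterByExpr, no filter, DESeq2 1.42.0, the compared groups alone, a replicate block, each replicate number left out, and a prior count of 2.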

Additional observations from a re-analysis of the deposited data

Results flagged for a closer look

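Dixon's criterion at the 95% level was applied to 54 groups of a member and a condition, and chance alone passes it in about 1 of 20 groups. In 8 of them 1 library stood apart. In MEIS1-OE, replicate 3 was the library in question for 3 genes, with the lowest ERBB2 (162.0 CPM) and the highest ERBB4 (7.15 CPM) and EGF (9.36 CPM) of its condition. The others were EGFR in ctrl-KO replicate 6 (42.5 CPM, highest), EGFR in MEIS2-KO replicate 1 (26.6 CPM, lowest), ERBB4 in MEIS2-OE replicate 1 (9.79 CPM, highest), NRG2 in MEIS1-OE replicate 2 (0.446 CPM, highest) and NRG2 in MEIS1-KO replicate 3 (0.0522 CPM, highest, from 1 count).

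For 3 genes the effect of activation differed between MEIS1 and MEIS2 by the direct test of both conditions: ERBB3 (1.18 on the log2 scale, higher in MEIS1-OE), NRG1 (1.03) and NRG4 (1.75, from 29 against 8 summed counts, a ratio of 3.58 with a 95% interval of 1.60 to 9.07 for counting error). The call of NRG4 was lost in 6 of 12 alternatives, with DESeq2 (adjusted p = 0.110) and without the libraries of replicate 1, 2, 3, 4 or 6 in turn, over a range of 0.0321 to 0.140.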

How the results depend on the processing

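For the receptors and ligands, 412 alternative values of 32 results held 394 that kept direction and side of the threshold, 10 that were no longer called, 8 that became called and 0 that turned direction. For the pathway genes, 150 of 1157 alternative values of 89 results were no longer called, for the markers 117 of 1021 values of 79 results, and 0 turned direction. With 1 replicate number left out, 0 to 1 members were called in MEIS2-OE, 1 to 2 in MEIS2-KO and 0 to 1 in the MEIS2 contrast. With filterByExpr NRG2 and TGFA were not tested, and 6 members were called between the controls. ERBB4 was called in the MEIS1 contrast with RLE factors (-0.67, adjusted p = 0.0463), filterByExpr (-0.65, adjusted p = 0.0466) and DESeq2 (-0.68, adjusted p = 0.0217), and without replicate 3 (-0.86, adjusted p = 0.00821). The cause was not tested. Over all genes, the calls of MEIS1-KO numbered 287, 458 with the replicate block and 108 to 260 with 1 replicate number left out, those of MEIS2-KO 1974 and 946 to 2003, those of MEIS2-OE 266 and 163 to 246, those of MEIS1-OE 1791 and 1152 to 2133, those of the MEIS1 contrast 686 and 398 to 746, those of the MEIS2 contrast 506, 816 with the compared groups alone and 226 to 489, those of MEIS1-OE against MEIS2-OE 1526 and 1018 to 1996, and those between the knockouts 3, 7 with DESeq2 and 2 to 3. No source says what a replicate number shares, and not every pair of same-numbered libraries correlated above 0.1, so the libraries were not treated as pairs: the mean correlation of deviations was 0.0361 for the same number and -0.00732 for others, with 16 of 90 pairs above 0.1, and 16 of 36 libraries correlated best with their own number, a hint from the data and not from the design. The replicate block called ERBB4 in the MEIS1 contrast (-0.65, adjusted p = 0.0391) and changed no other call among the receptors and ligands. NRG2, TGFA and NRG4 had at most 9 counts in any library, which limits their precision.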
